A study of Mus musculus with 12 samples.

Results

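The integrated stress response and the unfolded protein response were followed as a module of 38 named genes in mouse T cells treated with the cytidine analogue azacitidine (AzaC). The members were chosen by name: regulators and targets of the transcription factor ATF4, sensors, chaperones and degradation factors of the endoplasmic reticulum (ER), and heat shock genes of the cytosol. A gene was taken as measured where an array row carried its symbol and no other symbol, and 36 of the 38 were measured, among 22180 genes in all. Aars and Pdia4 have rows that are shared with another gene and were left out.

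The 12 Affymetrix arrays form 4 groups of 3, hybridised with RNA from sorted cells of the same kind of co-culture. Natural regulatory T cells (nTregs) came from spleens of B6.Foxp3GFP mice, in which green fluorescent protein marks cells that express Foxp3, and Treg-depleted T cells came from a cross of B6.Foxp3GFP with B6.CAGDSRED mice, whose cells carry a red fluorescent protein. The strain field of the labels names, for every sample, the cross of B6.Foxp3GFP with the DsRed transgenic B6.Cg-Tg(CAG-DsRed*MST)1Nagy/J, nTregs included. The cells were mixed at 1 nTreg to 10 effector cells, activated for 2 days with beads carrying antibodies to CD3 and CD28 and with human IL-2 at 500 U/mL, before a further 2 days in 1 µM AzaC or in phosphate-buffered saline (PBS). The nTregs were sorted as CD4+ cells without DsRed and with Foxp3GFP, and the CD4 effector cells (CD4 cells) as CD4+ cells with DsRed and without Foxp3GFP. All 4 groups share the activation, the IL-2 and the co-culture, so a PBS sample is an activated T cell sample and not a resting one. Nothing in the labels ties a replicate to its own animal or culture, and the p-values measure only the spread between these samples, which may be technical.

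The integrated stress response begins with kinases that phosphorylate the translation factor eIF2alpha. General translation then falls, while ATF4 is translated more and turns on genes of amino acid synthesis, amino acid transport and tRNA charging. The unfolded protein response is set off when unfolded proteins collect in the ER, through the sensors PERK (Eif2ak3), IRE1 (Ern1) and ATF6. PERK feeds into ATF4, IRE1 splices the Xbp1 mRNA so that it encodes an active transcription factor, and ATF6 is cut in the Golgi to release another. XBP1 and ATF6 raise ER chaperones and the machinery that removes misfolded proteins from the ER. Activated T cells make much protein and use both responses. Much of the control of ATF4, PERK, IRE1 and ATF6 is on translation, phosphorylation, splicing or cleavage, none of which an array of gene-level signal measures.

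Promoter stretches of the members are printed here because these transcription factors act through short motifs close to the gene start. RefSeq promoter windows (GRCm38.p6) ran from 250 bases before to 50 bases after the gene start, 300 bases in all. They were matched by gene ID for 34 of the 36 measured members. Where a gene had several windows listed, only the first was used. The 5 motifs named below were searched on both strands. Because the members were chosen by name as genes of these responses, a higher motif share than over all windows is no independent result. The shares are descriptions and were not tested. The ER stress response element (ERSE, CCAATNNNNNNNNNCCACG), at which NF-Y binds the first part and ATF6 the last, was present in 7 of the 34 member windows and in 0.13% of all 27025 windows. The 8 ERSE copies, 2 of them in Hsp90b1, are printed in the orientation of the motif, with its fixed bases in capitals.
Calr, chr8:84847075-84847093, gene on the minus strand: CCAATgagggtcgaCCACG
Canx, chr11:50325800-50325818, gene on the minus strand: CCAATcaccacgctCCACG
Dnajc3, chr14:118937827-118937845, gene on the plus strand: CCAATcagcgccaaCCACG
Hsp90b1, chr10:86705533-86705551, gene on the minus strand: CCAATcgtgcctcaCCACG
Hsp90b1, chr10:86705638-86705656, gene on the minus strand: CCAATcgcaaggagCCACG
Hspa5, chr2:34772025-34772043, gene on the plus strand: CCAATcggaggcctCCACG
Pdia6, chr12:17266491-17266509, gene on the plus strand: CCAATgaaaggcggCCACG
Syvn1, chr19:6046532-6046550, gene on the plus strand: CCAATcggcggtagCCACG

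The C/EBP-ATF response element (CARE, TGATGNAA), bound by ATF4 with a C/EBP partner, was present in 5 of the 34 member windows and in 4.06% of all windows. Here too the motif's fixed bases are in capitals, and 6 bases are shown on each side.
Asns, chr6:7693219-7693238, gene on the minus strand: gccacaTGATGaAActtccc
Chac1, chr2:119351043-119351062, gene on the plus strand: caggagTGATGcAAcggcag
Gars, chr6:55037965-55037984, gene on the plus strand: ggtgcaTGATGaAAtagcgc
Herpud1, chr8:94386311-94386330, gene on the plus strand: gcgggcTGATGcAAcccgcc
Trib3, chr2:152344033-152344052, gene on the minus strand: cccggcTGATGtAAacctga

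The other 3 motifs each had a match in 1 member. The second form of the ER stress element (ERSE-II, ATTGGNCCACG), present in 0.04% of all windows, was found in Herpud1. The heat shock element (HSE, GAANNTTCNNGAA), present in 0.53% of all windows, was found in Hsph1, after the gene start. The core of the unfolded protein response element (UPRE core, TGACGTG), present in 1.99% of all windows, was found in Hspa5 and overlapped no other match there. The first 2 of these are printed with fixed bases in capitals.
Herpud1, chr8:94386377-94386387, gene on the plus strand, ERSE-II: ATTGGgCCACG
Hsph1, chr5:149636288-149636300, gene on the minus strand, heat shock element: GAActTTCcaGAA

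The 250 bases before the start of Xbp1 and of Calr are printed because these were the members with the largest differences between nTregs with AzaC and with PBS. The Calr stretch holds the ERSE copy in capitals, on the strand opposite to that of the gene. The Xbp1 stretch holds none of the 5 motifs as spelled above. A match or its lack is a statement about letters in this window and not about binding.
Xbp1, chr11:5520391-5520640, plus strand: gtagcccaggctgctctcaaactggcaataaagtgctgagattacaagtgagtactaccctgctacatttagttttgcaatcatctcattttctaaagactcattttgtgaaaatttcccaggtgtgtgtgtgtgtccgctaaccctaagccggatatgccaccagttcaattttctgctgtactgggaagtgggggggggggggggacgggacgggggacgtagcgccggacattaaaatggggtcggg
Calr, chr8:84846932-84847181, minus strand: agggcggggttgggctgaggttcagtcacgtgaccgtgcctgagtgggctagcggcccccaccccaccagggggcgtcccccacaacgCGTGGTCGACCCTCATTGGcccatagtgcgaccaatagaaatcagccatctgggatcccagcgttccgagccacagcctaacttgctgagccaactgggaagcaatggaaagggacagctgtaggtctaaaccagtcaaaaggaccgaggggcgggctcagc

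Values are log2 signals made by the authors with RMA, and a difference of 1 on this scale is a 2-fold change of signal. The array that stood apart from the rest was nTreg PBS replicate 1, which had a mean correlation of 0.972 with the other arrays, against 0.979 for CD4 PBS replicate 3 and 0.983 to 0.987 for the remaining arrays. Among the 36 members it was the lowest of the 3 nTreg PBS arrays in 19 and the highest in 11, with a median distance from the mean of the other 2 arrays of -0.08, against 0.03 over all genes. Values without it are given beside many of the results it moves, though not beside all of them. Without it, 5 of the 36 members changed sign in the AzaC comparison of nTregs (Ppp1r15a, Wars, Sars, Atf6 and Dnajc3) and 5 in the comparison of the populations under PBS (Ppp1r15a, Shmt2, Ern1, Hspa5 and Herpud1); none of them had passed the test. A member is said to lie near background in a group where its mean is below the 95th percentile of 26 genes of other tissues in that group (7.25 to 7.36). Chac1, Hspa1a and Hspa1b lay near background in all 4 groups, Cebpb in both CD4 groups and Asns in the CD4 PBS group. The sorted cells carried their defining markers: the mean Foxp3 signal was 12.34 in nTregs with PBS and 12.69 with AzaC, against 8.05 and 9.62 in CD4 cells, and Cd3e lay between 12.33 and 13.11 in the 4 group means.

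**Figure D1:**
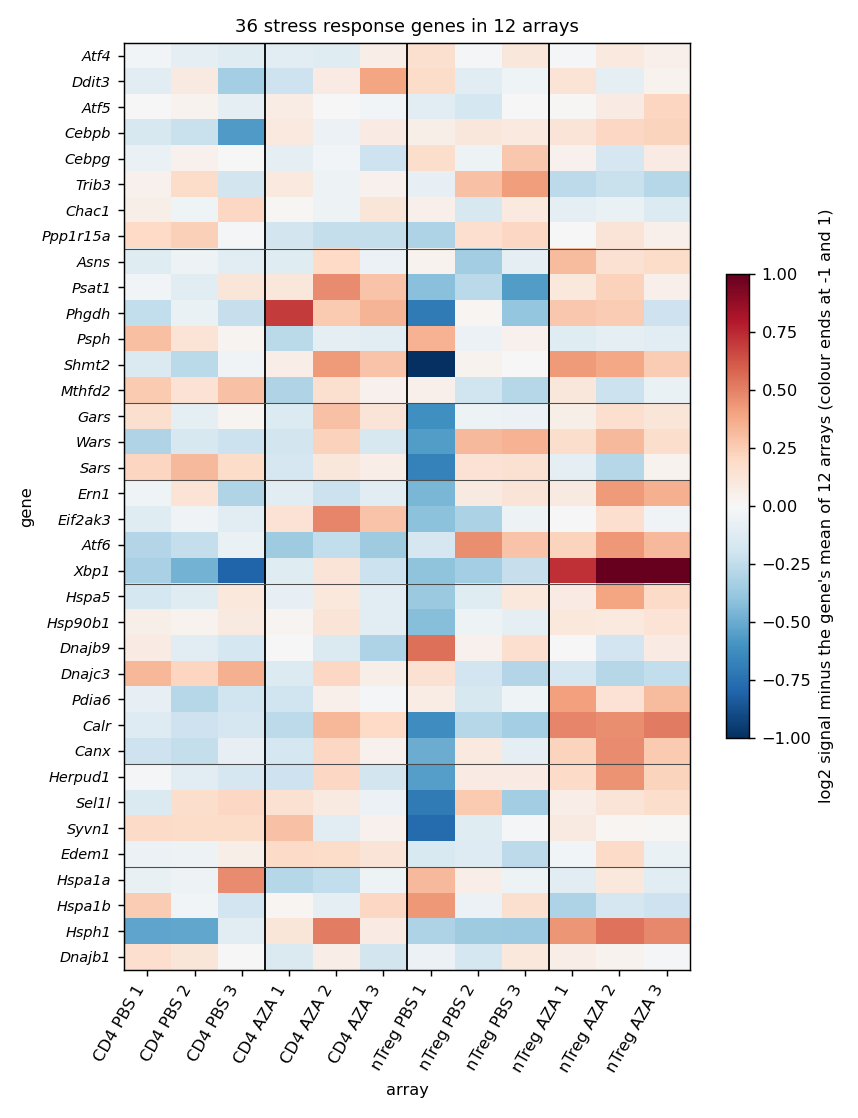
Each cell is the log2 signal of 1 of the 36 members (rows, grouped by role) on 1 of the 12 arrays (columns), minus that gene's mean over the 12 arrays; colours end at -1 and 1. Xbp1 is high on the 3 nTreg AzaC arrays, and nTreg PBS replicate 1 is low for Shmt2, Sars, Sel1l and Syvn1 against the other 2 arrays of its group.

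The first comparison asked what AzaC changed in nTregs. Xbp1, Calr, Hsph1 and Psat1 rose: the transcription factor of the IRE1 arm, an ER chaperone, a cytosolic chaperone and an enzyme of serine synthesis. Xbp1, Calr, Hsph1 and Psat1 were the 4 of 36 members that passed limma's test at an adjusted p under 0.05. No member passed that test as a fall, while 27 members lay above 0 and 9 below. The lowest was Trib3, at -0.47 (adjusted p = 0.091 in limma). Over all 22180 genes, 448 passed in either direction (2.02%) and 315 upwards (1.42%). Of the 10398 genes whose mean was above background in at least 1 group, 287 passed upwards and 105 downwards. Of the 36 members, 33 are among those 10398. With nTreg PBS replicate 1 left out, Xbp1, Calr and Hsph1 rose and Trib3 fell, against 410 of all genes (1.85%). Of all called genes, 70.3% were higher with AzaC; with each array centred on its median this share was 82.4%, and with quantile normalization repeated on the gene table it was 57.8%.

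Most members lay above 0 without passing the test. The median difference of the 36 members was 0.20 on the log2 scale (range -0.47 to 1.25) and 27 of them were above 0, against a median of -0.04 and 41.9% above 0 over all genes, and a median of 0.06 and 60.2% above 0 over the 10398 genes whose signal was above background in at least 1 group. At an unadjusted p under 0.05 stood 17 of the 36 members, against 16.8% of all genes, and in 19 members the AzaC and PBS arrays did not overlap, against 24.5% of all genes. Without nTreg PBS replicate 1 the members' median was 0.18 and 24 were above 0. Centring gave a median of 0.25 with 28 above 0, and repeated quantile normalization 0.14 with 22 above 0. In RNA from sorted bulk cells, a change in the share of cells that express a gene and a change in the RNA per cell cannot be told apart.

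Xbp1 encodes the factor that IRE1 activates by splicing. Its signal was 10.06, 10.12 and 10.23 on the nTreg PBS arrays and 11.19, 11.51 and 11.46 on the nTreg AzaC arrays. Every AzaC array lay far above every PBS array. The difference was 1.25 (SE 0.14, 95% interval 0.95 to 1.55, 2.37-fold, adjusted p = 0.000387 in limma). It passed under all 22 alternative settings, at 1.16 to 1.35. The array row sums the transcript and does not separate the spliced from the unspliced form.

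Among the sensors the differences were smaller. Ern1, the splicing enzyme IRE1, differed by 0.37 (adjusted p = 0.257), Eif2ak3, the kinase PERK, by 0.30 (adjusted p = 0.23) and Atf6 by 0.13 (adjusted p = 0.647). Their SEs were 0.16, 0.12 and 0.14. None of the 3 sensors passed, and of these only Eif2ak3 had AzaC and PBS arrays that did not overlap. On leaving out nTreg PBS replicate 1, the differences of Ern1, Eif2ak3 and Atf6 were 0.19, 0.22 and -0.05.

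Calr encodes calreticulin, which binds calcium and helps glycoproteins to fold. Its signal was 9.56, 9.89 and 9.84 with PBS and 10.67, 10.64 and 10.70 with AzaC. The AzaC arrays lay close together and far above the PBS arrays, of which replicate 1 was the lowest. The difference was 0.91 (SE 0.14, 95% interval 0.61 to 1.21, 1.88-fold, adjusted p = 0.00355 in limma), and it passed under all 22 alternatives, at 0.81 to 0.97.

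The other 6 measured ER chaperones did not pass the test. Canx, the membrane-bound relative of calreticulin, was at 0.48 (SE 0.15, adjusted p = 0.122), Pdia6, a disulphide isomerase, at 0.33, and Hsp90b1, the ER form of HSP90, at 0.31. In these 3 the AzaC arrays lay above all PBS arrays. Dnajb9 and Dnajc3, ER co-chaperones of the J-domain family, were at -0.29 and -0.12. The median of the 7 chaperones was 0.33, and 0.23 without nTreg PBS replicate 1; Canx was then at 0.32, Pdia6 at 0.39, Hsp90b1 at 0.19, Dnajb9 at -0.14 and Dnajc3 at 0.01.

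Hspa5 encodes BiP, the ER HSP70 that holds the sensors inactive and is the usual readout of the response. Its signal was 8.94, 9.19 and 9.41 with PBS and 9.39, 9.70 and 9.50 with AzaC. The lowest AzaC array lay just below the highest PBS array. The difference was 0.35 (SE 0.13, 95% interval 0.06 to 0.64, adjusted p = 0.213), which did not pass, and 0.23 without nTreg PBS replicate 1.

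The 4 factors of ER-associated degradation lay between 0.21 and 0.42, and none passed. Herpud1, which organises the degradation complex in the membrane, was at 0.42 (adjusted p = 0.223), Sel1l, the adaptor of the complex, at 0.40, Syvn1, its ubiquitin ligase HRD1, at 0.35, and Edem1, which picks out misfolded glycoproteins, at 0.21. Their median was 0.37, and 0.19 without nTreg PBS replicate 1, on which Syvn1 stood at 8.59 against 9.24 and 9.34. Herpud1 was then at 0.21, Sel1l at 0.18, Syvn1 at 0.11 and Edem1 at 0.22. With nTreg PBS replicate 2 left out instead, Sel1l was at 0.66 and passed (adjusted p = 0.0341).

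The windows with an ERSE copy belong to Calr, Canx, Dnajc3, Hsp90b1, Hspa5, Pdia6 and Syvn1. Their median difference in nTregs was 0.35, with 6 of the 7 above 0 and a range of -0.12 to 0.91. The 27 members whose windows held no ERSE had a median of 0.10, with 19 above 0. With nTreg PBS replicate 1 left out, the medians were 0.23 and 0.18. In CD4 cells the medians were 0.04 and 0.03. These medians are descriptions of the members and were not tested.

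Hsph1 encodes HSP110, a cytosolic chaperone that works with HSP70 on aggregated proteins. Its signal was 8.95, 8.90 and 8.89 with PBS and 9.70, 9.80 and 9.74 with AzaC. Both groups were tight and well apart. The difference was 0.83 (SE 0.13, 95% interval 0.54 to 1.12, 1.78-fold, adjusted p = 0.0046 in limma), and it passed under all 22 alternatives, at 0.73 to 0.88.

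The other heat shock members did not pass. Dnajb1, a co-chaperone of HSP70 and a common target of the heat shock factor, was at 0.07 (SE 0.11, 95% interval -0.16 to 0.30). The inducible HSP70 gene Hspa1b had signals of 6.90, 6.41 and 6.63 with PBS and 6.16, 6.30 and 6.26 with AzaC, with a difference of -0.40 (adjusted p = 0.18). Its near-identical copy Hspa1a was at -0.14. Each of the 2 HSP70 genes has 1 row of its own and shares 1 more, probes can be crossed between them, and all their group means lay near background.

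Psat1 encodes phosphoserine aminotransferase, a step of serine synthesis and a target of ATF4. Its signal was 7.76, 7.91 and 7.62 with PBS and 8.28, 8.41 and 8.23 with AzaC. The groups did not overlap. The difference was 0.54 (SE 0.12, 95% interval 0.29 to 0.80, 1.46-fold, adjusted p = 0.0343 in limma), but 9 of the 22 alternatives put the adjusted p above the threshold, at up to 0.155. These were the fit of the compared groups alone, the test without moderation, and the fits without nTreg PBS replicate 1 or 3, any 1 of the nTreg AzaC replicates, CD4 PBS replicate 1 or CD4 AzaC replicate 3; across the 22 the difference stayed between 0.47 and 0.61.

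The other enzymes of serine, asparagine and one-carbon metabolism did not pass. Phgdh and Psph, the steps before and after Psat1, were at 0.46 (adjusted p = 0.223) and -0.22 (adjusted p = 0.364), and Asns, asparagine synthetase, was at 0.35 (adjusted p = 0.163). Shmt2, the mitochondrial serine hydroxymethyltransferase, had the largest difference that did not pass, 0.81 (SE 0.28, adjusted p = 0.162). Its PBS signals were 9.56 on replicate 1 and 11.00 and 10.96 on the others, against 11.39, 11.35 and 11.22 with AzaC. Replicate 1 lay far below the other PBS arrays, which were close to the AzaC arrays. Mthfd2, the next mitochondrial enzyme, was at 0.09. On leaving out PBS replicate 1, Shmt2 was at 0.34, Phgdh at 0.29, Psph at -0.10, Asns at 0.43 and Mthfd2 at 0.18.

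The regulators at the head of the ATF4 arm did not move together. Atf4 itself had signals of 11.44, 11.27 and 11.39 with PBS and 11.27, 11.38 and 11.33 with AzaC, a difference of -0.04 (95% interval -0.25 to 0.17). Ddit3, the pro-apoptotic factor CHOP, had signals of 8.91, 8.61 and 8.68 with PBS and 8.86, 8.63 and 8.76 with AzaC, a difference of 0.01 (95% interval -0.32 to 0.35). In both genes the groups overlapped almost fully.

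Trib3, a pseudokinase that CHOP and ATF4 induce, lay on the other side of 0. Its signal was 7.61, 7.99 and 8.11 with PBS and 7.43, 7.47 and 7.41 with AzaC, a difference of -0.47 (SE 0.13, adjusted p = 0.091). It passed as a fall without nTreg PBS replicate 1 (-0.62, adjusted p = 0.0135) and with array weights (-0.58, adjusted p = 0.00172). The other ATF4 arm regulators lay between -0.15 and 0.19: Cebpg and Cebpb, dimer partners of ATF4, Atf5, a relative of ATF4, Chac1, which degrades glutathione, and Ppp1r15a, the phosphatase subunit GADD34 that reverses the phosphorylation of eIF2alpha. The median of these 8 regulators was -0.01, and 4 were above 0. Ppp1r15a was at 0.04 with all arrays and at -0.13 without nTreg PBS replicate 1.

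The 3 measured tRNA synthetase members were at 0.36 (Gars), 0.19 (Wars) and 0.01 (Sars), and none passed. On leaving out nTreg PBS replicate 1 they were at 0.18, -0.11 and -0.26, and their median went from 0.19 to -0.11. That array was the lowest of its group in all 3 genes.

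Markers of other cell types moved in this comparison too. Both CD8 T cell markers rose in nTregs with AzaC: Cd8a from 6.86 ± 0.48 to 8.24 ± 0.08 (SD, n = 3 each; difference 1.39, adjusted p = 0.0018 in limma) and Cd8b1 by 0.72 (adjusted p = 0.0213). On the linear scale the 2 genes summed to 1302 to 1648 on the nTreg PBS arrays and 2427 to 2650 on the nTreg AzaC arrays. In CD4 cells the sums were 1125 to 1352 with PBS and 854 to 1271 with AzaC. Cd8a lay near background in the 3 groups other than nTregs with AzaC. Cd8b1 lay well above background in all 4 groups: 10.15 and 9.87 in CD4 cells with PBS and AzaC, 10.42 and 11.14 in nTregs. The sort took CD4+ cells, and CD8 effector cells were present in the co-cultures. The part of such cells in the members' differences was not tested. Xbp1 and ER chaperones are also high in plasma cells. Of the 7 plasma cell markers, 4 lay near background in nTregs with PBS and 6 in each of the other groups, with Sdc1 and Jchain among them throughout. Their summed linear signal was 1126 to 1321 in nTregs with PBS and 1072 to 1094 with AzaC. None of the 7 plasma cell markers passed in nTregs with AzaC, and 3 of them stood at an unadjusted p under 0.05 in limma. The median difference of the 7 was -0.31, with 2 above 0, and -0.22 without nTreg PBS replicate 1. The part of plasma cells was not tested. Of the other lists, 1 of 5 NK cell markers rose and 1 of 11 myeloid and dendritic cell markers fell. Of the 8 Treg markers 1 passed, Ikzf4, which rose by 0.76 (adjusted p = 0.0152 in limma). The summed linear signal of the Treg list was 22908 to 26962 on the nTreg PBS arrays and 30009 to 30242 on the nTreg AzaC arrays. Its part in the members' differences was not tested. None of the 7 B cell markers or the 3 erythroid and platelet markers measured passed in limma, with 1 and 0 at an unadjusted p under 0.05.

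**Figure D2:**
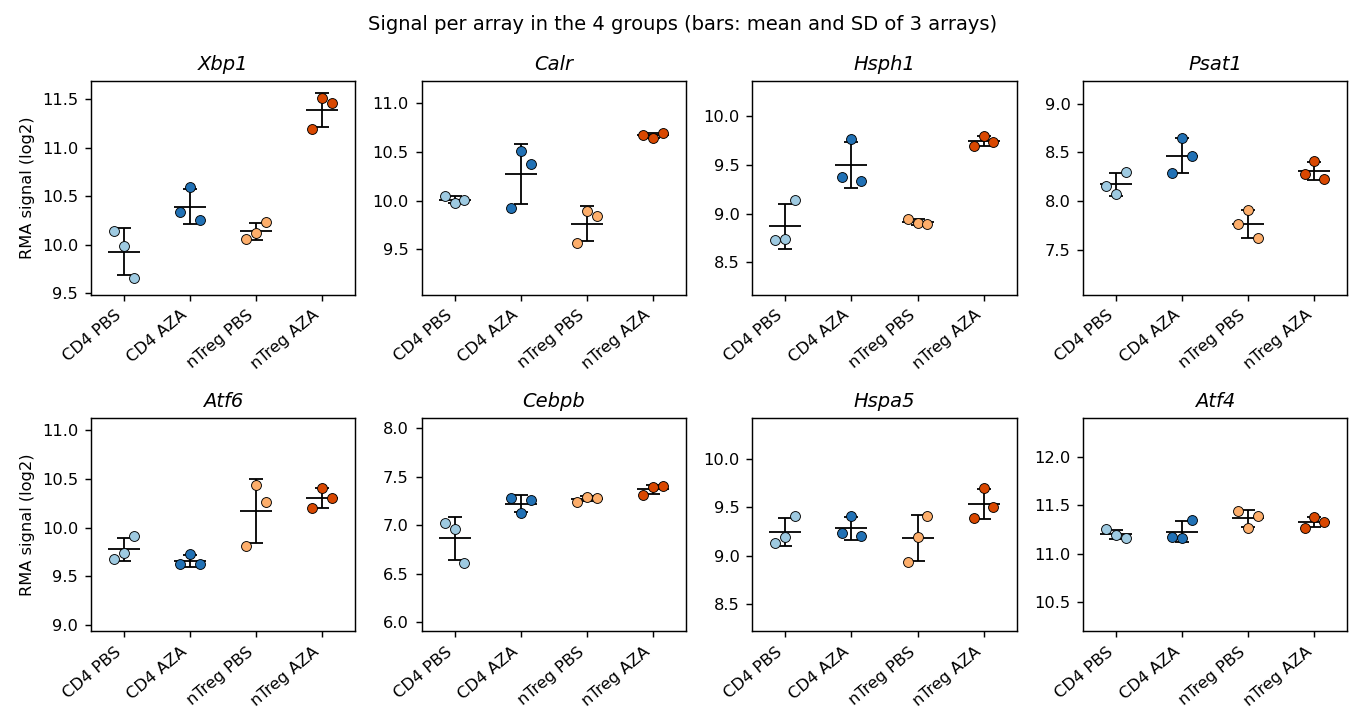
Log2 signal on each of the 12 arrays (points) for 8 members, with the mean (line) and SD (bars) of the 3 arrays of each group; every panel has its own vertical range. Xbp1, Calr, Hsph1 and Psat1 stand higher in nTregs with AzaC than with PBS on every array, while the Atf4 values of the 2 groups overlap.

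The second comparison asked what AzaC changed in the CD4 cells of the same co-cultures. Hsph1 rose, and it was the 1 member of 36 that passed, against 391 of all genes in either direction (1.76%) and 184 upwards (0.830%). Of the 10398 genes above background, 163 passed upwards and 202 downwards. Higher calls made up 47.1% of all calls, 27.3% with each array centred and 59.5% with repeated quantile normalization. The median difference of the 36 members was 0.03, against 0.01 over all genes and -0.06 over genes above background, and 21 members were above 0; with centring 14 were. At an unadjusted p under 0.05 stood 8 members, against 15.2% of all genes, and in 11 the groups did not overlap, against 23.6% of all genes.

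The Hsph1 signal in CD4 cells was 8.73, 8.74 and 9.14 with PBS and 9.38, 9.77 and 9.34 with AzaC. All AzaC arrays lay above the PBS arrays, with PBS replicate 3 the nearest. The difference was 0.63 (SE 0.13, 95% interval 0.34 to 0.91, 1.54-fold, adjusted p = 0.0304 in limma). It failed in 10 of the 22 alternatives, with an adjusted p of up to 0.115 and differences of 0.49 to 0.76. These were centring, no moderation, the fit of the CD4 groups alone, and the fits without CD4 PBS replicate 1 or 2, any 1 of the CD4 AzaC replicates, or nTreg AzaC replicate 1 or 3. Without nTreg PBS replicate 1, which changes only the pooled spread here, 4 members passed, against 1044 of all genes (4.71%): Hsph1, Phgdh (0.62, adjusted p = 0.0385) and Shmt2 (0.40, adjusted p = 0.0493) rose, and Ppp1r15a fell (-0.36, adjusted p = 0.0408).

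Xbp1 in CD4 cells was at 10.14, 9.99 and 9.66 with PBS and at 10.34, 10.59 and 10.25 with AzaC. The AzaC arrays lay above the PBS arrays, by a small margin. The difference was 0.46 (SE 0.14, 95% interval 0.16 to 0.76), and the adjusted p of 0.126 did not pass. Calr was at 10.05, 9.97 and 10.01 with PBS and at 9.92, 10.51 and 10.38 with AzaC, which overlap; its difference was 0.26 (adjusted p = 0.391).

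Hspa5 was at 9.13, 9.19 and 9.41 with PBS and 9.23, 9.41 and 9.20 with AzaC, a difference of 0.04 (95% interval -0.25 to 0.33). Atf4 was at 11.25, 11.19 and 11.16 with PBS and 11.17, 11.16 and 11.35 with AzaC, a difference of 0.03 (95% interval -0.18 to 0.23). Ddit3 was at 8.61, 8.82 and 8.39 with PBS and 8.52, 8.81 and 9.12 with AzaC, a difference of 0.21 (95% interval -0.12 to 0.54). In all 3 genes the groups overlapped.

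Among the enzymes, Phgdh was at 0.62 (SE 0.18, adjusted p = 0.117) with AzaC arrays above all PBS arrays, and Psat1 was at 0.29 (adjusted p = 0.265). Psph was at -0.31 (adjusted p = 0.23) with AzaC arrays below all PBS arrays. Eif2ak3 was at 0.40 (adjusted p = 0.131), and it passed with repeated quantile normalization (0.47, adjusted p = 0.0406) and with array weights (0.39, adjusted p = 0.0367). The 4 degradation factors lay between -0.11 and 0.18 and the 7 ER chaperones between -0.26 and 0.26. Hspa1b was at 6.72, 6.44 and 6.28 with PBS and 6.49, 6.37 and 6.68 with AzaC, near background.

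Treg markers moved in CD4 cells with AzaC as well. Of the 8 markers Foxp3, Ikzf4 and Il2ra rose, by 1.57, 0.98 and 0.59, and the summed linear signal of the list went from 11285 to 11396 on the PBS arrays to 14789 to 15672 on the AzaC arrays. Of the 5 NK cell markers Klrd1 fell (-1.35), while the summed signal of that list overlapped between the groups (889 to 981 and 786 to 992). The part of either in the differences of Hsph1 and the other members was not tested.

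**Figure D3:**
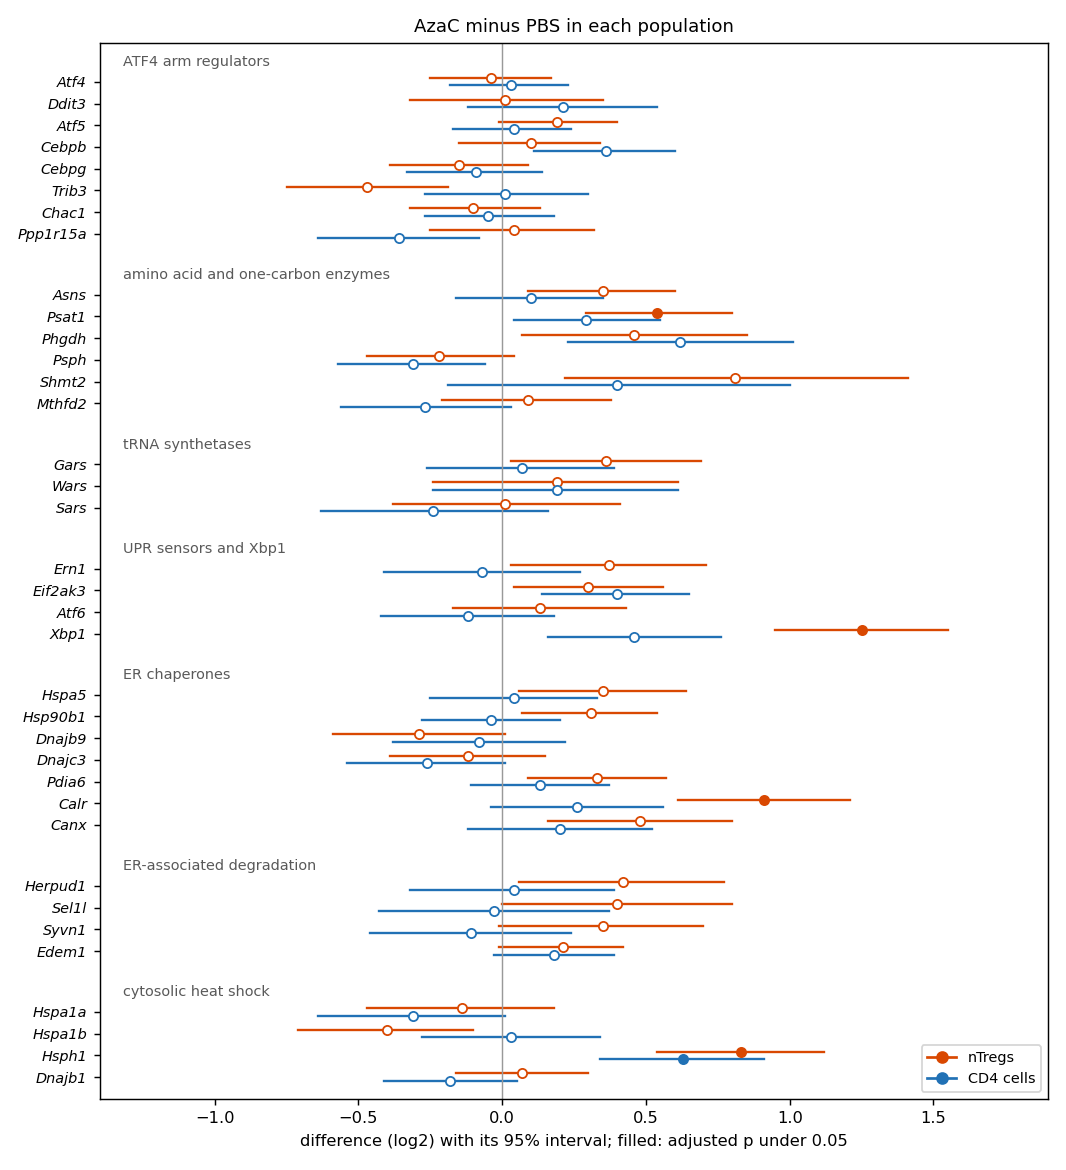
Difference in log2 signal between AzaC and PBS (horizontal axis) with its 95% interval for the 36 members, in nTregs and in CD4 cells; filled points passed limma's test at an adjusted p under 0.05. In nTregs Xbp1, Calr, Hsph1 and Psat1 are filled, in CD4 cells Hsph1 alone, and 27 nTreg points and 21 CD4 points lie above 0.

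The third comparison tested whether the AzaC difference itself was larger in nTregs than in CD4 cells. No member passed this test in limma, while 45 of all genes did (0.203%). At an unadjusted p under 0.05 stood 5 of 36, against 17.5% of all genes and 2180 of the 10398 genes above background. With array weights 1 member passed, against 401 of all genes (1.81%). Xbp1 came closest among the members: its AzaC difference was larger in nTregs by 0.79 (SE 0.20, 95% interval 0.36 to 1.21, adjusted p = 0.135), and with array weights by 0.90 (adjusted p = 0.0141). Calr was larger in nTregs by 0.65 (adjusted p = 0.188) and Hsp90b1 by 0.35 (adjusted p = 0.276; 0.23 without nTreg PBS replicate 1), while Trib3 was at -0.48 (adjusted p = 0.23). Hsph1, which passed in both populations, was at 0.21 (95% interval -0.20 to 0.61, adjusted p = 0.57).

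The AzaC difference was larger in nTregs for 26 of the 36 members (72.2%), against 45.4% of all genes and 67.7% of genes above background. The members' median was 0.23, against -0.04 over all genes and 0.14 over genes above background. On leaving out nTreg PBS replicate 1, the median of the members was 0.16, with 23 above 0, and Shmt2, Wars and Sars changed sign. Centring each array moved the median over all genes to 0.09 and that of the members to 0.35, and repeated quantile normalization brought the members to 0.06. Of all calls 71.1% were positive, 92.1% with centring and 58.2% with repeated quantile normalization. The signs of the AzaC difference were equal in both populations for 24 members, 18 above 0 and 6 below. Another 9 were above 0 in nTregs and below in CD4 cells, and 3 the other way round.

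The last comparisons set nTregs against CD4 cells in the same culture. They use the same arrays as the AzaC comparisons, so their values are not independent of those given above. Under PBS the transcription factor gene Cebpb was higher in nTregs, and it was the 1 member that passed. Over all genes 1777 passed in either direction (8.01%) and 864 upwards (3.90%). Of the 10398 genes above background, 687 passed upwards and 860 downwards. The share of members called lay below both of these shares. Of all calls 48.6% were higher in nTregs, 29.2% with centring and 53.3% with repeated quantile normalization. The median of the members was -0.06, with 13 above 0, against 0.03 over all genes; without nTreg PBS replicate 1 it was 0.01, with 18 above 0. At an unadjusted p under 0.05 stood 8 members, against 23.0% of all genes, and in 10 the populations did not overlap, against 26.7%.

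The Cebpb signal was 7.24, 7.29 and 7.28 in nTregs and 7.02, 6.96 and 6.61 in CD4 cells under PBS. The CD4 values lay near background and the nTreg values barely above it. The difference was 0.41 (SE 0.11, 95% interval 0.17 to 0.65, adjusted p = 0.04 in limma). It failed in 14 of the 22 alternatives, with an adjusted p of up to 0.167: with centring, repeated quantile normalization, the fixed replicate block (0.0542), no moderation and the fit of the compared groups alone, and without CD4 PBS replicate 2 or 3, CD4 AzaC replicate 3, or any 1 of the 6 nTreg arrays. Without CD4 PBS replicate 3 the difference was 0.28. In the cultures with AzaC, Cebpb was at 7.31, 7.39 and 7.40 in nTregs and 7.28, 7.12 and 7.26 in CD4 cells, a difference of 0.15 (adjusted p = 0.489).

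Other members under PBS came near the threshold from below. Psat1 was lower in nTregs by a difference of -0.41 (adjusted p = 0.0521) with signals of 7.76, 7.91 and 7.62 against 8.15, 8.07 and 8.30 in CD4 cells. Its adjusted p fell under 0.05 with dim genes left out (0.0301), with centring (0.0279), and without CD4 AzaC replicate 1, CD4 AzaC replicate 2 or nTreg PBS replicate 2. Dnajc3, the ER co-chaperone p58IPK, was at -0.42 (adjusted p = 0.0591) and Syvn1 at -0.49 (adjusted p = 0.0871); both passed with centring (adjusted p = 0.0262 and 0.0474). Without nTreg PBS replicate 1, 3 members passed, against 1607 of all genes (7.25%): Wars (0.56, adjusted p = 0.0152) and Atf6 (0.58, adjusted p = 0.00554) were higher in nTregs and Dnajc3 lower (-0.55, adjusted p = 0.00833). Syvn1 was then at -0.26. Xbp1 did not pass under PBS (0.21, 95% interval -0.09 to 0.51, adjusted p = 0.397). In these samples all 8 Treg markers passed as higher in nTregs, as did Cd79b of the B cell list (0.80) and Prdm1 of the plasma cell list (0.89), while Cd4 (-0.83), Cd3e (-0.77) and the NK cell genes Klrd1 (-1.30) and Eomes (-0.73) were lower; their part was not tested.

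With AzaC, Xbp1 and Atf6, the transcription factor and the sensor of the unfolded protein response, were higher in nTregs. They were the 2 of 36 members that passed, against 1498 of all genes in either direction (6.75%) and 1013 upwards (4.57%). The share of members called (5.56%) was near that of all genes. It lay below that of the 10398 genes above background, of which 906 passed upwards and 382 downwards. Of all calls 67.6% were higher in nTregs, 75.8% with centring and 56.6% with repeated quantile normalization. The median of the members was 0.10, with 24 above 0, against -0.04 over all genes and 0.07 over genes above background; repeated quantile normalization gave 0.00 with 18 above 0. At an unadjusted p under 0.05 stood 8 members, against 20.5% of all genes, and in 12 the populations did not overlap, against 32.3%.

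The Xbp1 signal with AzaC was 11.19, 11.51 and 11.46 in nTregs and 10.34, 10.59 and 10.25 in CD4 cells. The lowest nTreg array lay well above the highest CD4 array. The difference was 0.99 (SE 0.14, 95% interval 0.69 to 1.29, 1.99-fold, adjusted p = 0.000446 in limma), and it passed under all 22 alternatives, at 0.92 to 1.09.

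Atf6 with AzaC was at 10.20, 10.41 and 10.30 in nTregs and at 9.62, 9.73 and 9.62 in CD4 cells. The populations did not overlap. The difference was 0.65 (SE 0.14, 95% interval 0.35 to 0.95, 1.57-fold, adjusted p = 0.0114 in limma), and the adjusted p passed the threshold in 20 of 22 alternatives but not without CD4 AzaC replicate 1 (0.0509) or nTreg AzaC replicate 2 (0.0579). Under PBS Atf6 was at 9.81, 10.44 and 10.26 in nTregs and 9.68, 9.74 and 9.91 in CD4 cells, a difference of 0.40 (adjusted p = 0.105). There nTreg PBS replicate 1 lay among the CD4 arrays.

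Further members with AzaC did not pass: Ern1 was at 0.43 (adjusted p = 0.131), Calr at 0.40 (adjusted p = 0.112) and Pdia6 at 0.35 (adjusted p = 0.0862), each with nTreg arrays above all CD4 arrays. Without nTreg PBS replicate 1, which is in neither group, Ern1 and Pdia6 passed at adjusted p = 0.0334 and 0.0482, and with Xbp1 and Atf6 4 members were called, against 2467 of all genes (11.1%). Eif2ak3 lay on the other side, at -0.26 (adjusted p = 0.232). Both CD8 markers and all 8 Treg markers were higher in nTregs than in CD4 cells with AzaC, in the same samples as Xbp1. Of the 7 plasma cell markers Prdm1 was higher (1.06), with a summed linear signal of the list of 1072 to 1094 in nTregs and 686 to 816 in CD4 cells, and 6 of the 7 lay near background in each group. Of the 7 B cell markers Cd79b was higher (1.08). The part of these cell types in the differences of Xbp1 and Atf6 was not tested.

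**Figure D4:**
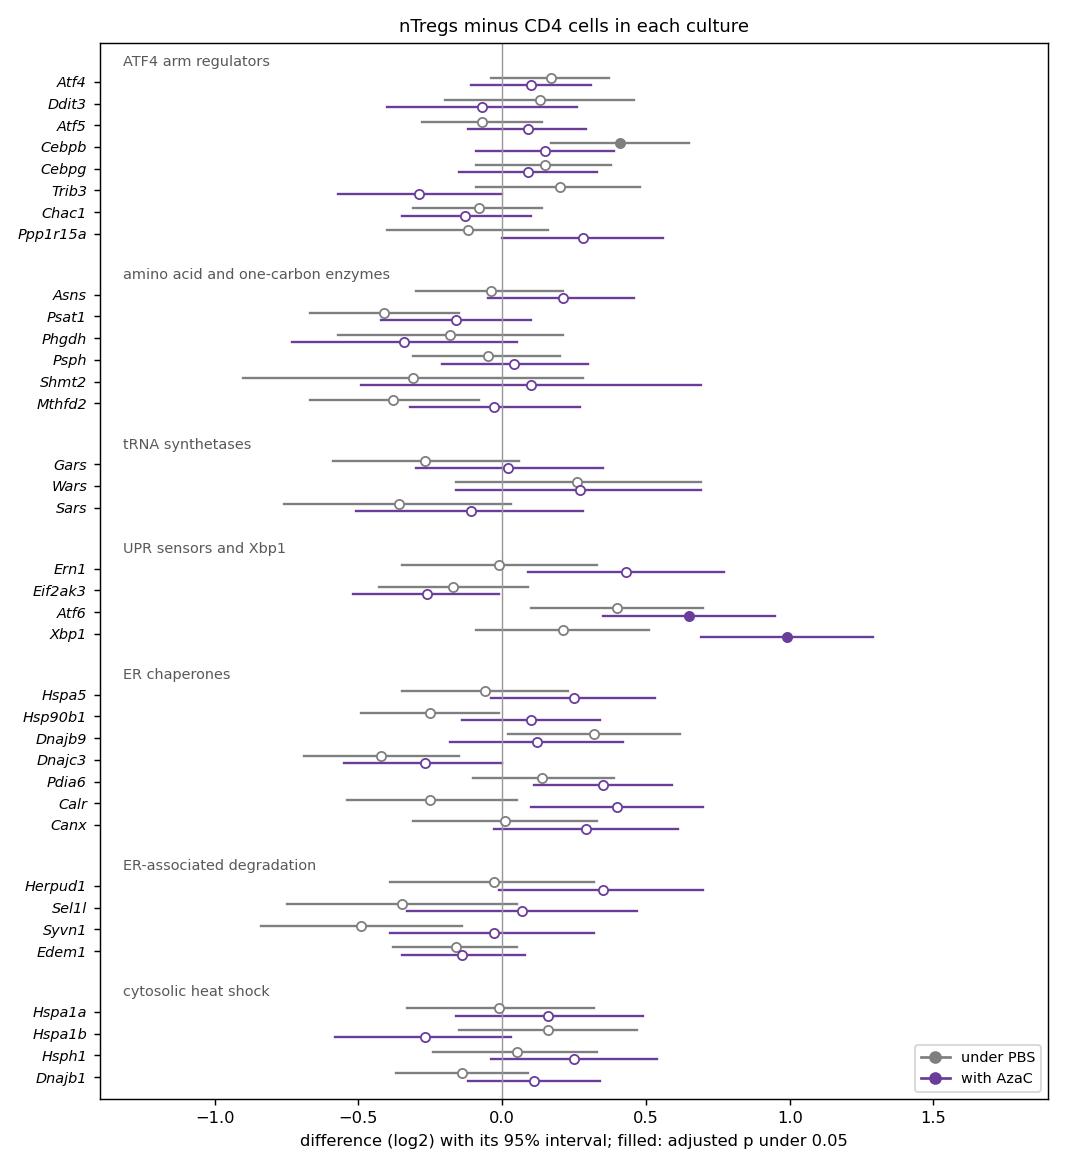
Difference in log2 signal between nTregs and CD4 cells (horizontal axis) with its 95% interval for the 36 members, under PBS and with AzaC; filled points passed limma's test at an adjusted p under 0.05. Cebpb is filled under PBS and Xbp1 and Atf6 with AzaC.

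Further genes of the same pathways were read from lists. Over all genes, 41.9% lay above 0 in nTregs with AzaC and 52.8% in CD4 cells. Over genes above background these shares were 60.2% and 39.2%. The shares of all genes that passed were 2.02% and 1.76%, and at an unadjusted p under 0.05 in limma 16.8% and 15.2%. Of the 10398 genes above background, 2523 and 2254 stood at that unadjusted level. Between the populations 8.01% of all genes passed under PBS and 6.75% with AzaC. Of 33 other genes of the unfolded protein response and ER-associated degradation, 1 rose in nTregs with AzaC: Sdf2l1, an ER protein that works with J-domain co-chaperones, at a mean of 8.63 with PBS and 9.57 with AzaC (difference 0.94, SE 0.13, adjusted p = 0.00242 in limma). It passed also with any 1 array left out, at an adjusted p of up to 0.0173. The list's median was 0.20, with 26 above 0, and 0.12 without nTreg PBS replicate 1. In CD4 cells none of the 33 passed and 5 stood at an unadjusted p under 0.05 in limma. Their median there was -0.10. Without nTreg PBS replicate 1, which changes only the pooled spread in CD4 cells, 2 of the 33 passed as lower, against 4.71% of all genes in either direction.

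In the population comparisons a few genes of this list passed. Under PBS, Sdf2l1 was lower in nTregs than in CD4 cells (-0.49, adjusted p = 0.0393), as were Edem3 (-0.63) and Uggt1 (-0.50), which trim or test the sugars of glycoproteins in the ER. With AzaC, Ero1a, which oxidises protein disulphide isomerases, Edem2 and Selenos were higher in nTregs, at 0.65, 0.47 and 0.48. The PBS calls were lost without any 1 of the CD4 PBS replicates, those of Uggt1 and Sdf2l1 also without nTreg PBS replicate 1, and that of Sdf2l1 also without nTreg PBS replicate 2, CD4 AzaC replicate 3 or any 1 of the nTreg AzaC replicates. The AzaC calls were lost without CD4 AzaC replicate 1 or 3 or nTreg AzaC replicate 1 or 2, those of Ero1a and Selenos also without nTreg AzaC replicate 3, and that of Selenos also without CD4 PBS replicate 1. The adjusted p then reached 0.0676 to 0.17. All these calls were also lost without moderation. Ero1a and Selenos, which have 2 rows each, lost theirs when a gene's rows were averaged. Selenos also failed with repeated quantile normalization and with the fixed replicate block.

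Of 23 other ATF4 targets, 2 amino acid transporters rose in CD4 cells with AzaC. Slc7a5 rose by 0.90 (SE 0.16, adjusted p = 0.00895 in limma) and Slc7a1 by 0.59 (SE 0.10, adjusted p = 0.00944). The call of Slc7a5 was lost without moderation, and that of Slc7a1 without CD4 PBS replicate 2 (adjusted p = 0.0544). In nTregs 1 gene of the list rose: Aldh18a1, an enzyme of proline synthesis (0.69, adjusted p = 0.0448), whose call was lost without any 1 of 9 arrays, all but CD4 AzaC replicates 1 and 2 and nTreg PBS replicate 2. The list's median was 0.03 in nTregs, -0.05 without nTreg PBS replicate 1, and 0.00 in CD4 cells. Without that array, 4 of the 23 passed as higher and 2 as lower in CD4 cells, against 4.71% of all genes. Under PBS Nupr1, Stc2 and Vldlr were higher in nTregs than in CD4 cells; Nupr1 (0.65, adjusted p = 0.00092) kept its call with any 1 array left out, though its CD4 signal of 6.98 lay near background. The call of Stc2 (0.43) was lost with centring and without CD4 PBS replicate 2 or 3 or nTreg PBS replicate 3 (adjusted p up to 0.0953). That of Vldlr (0.65, adjusted p = 0.0487) was lost in 14 of the 22 alternatives, among them 10 single arrays (all but CD4 PBS replicate 3 and nTreg PBS replicate 2). The Vldlr means of 7.05 in nTregs and 6.39 in CD4 cells both lay near background. With AzaC, Pck2 was higher in nTregs (0.55, adjusted p = 0.0157), but not without CD4 AzaC replicate 1 or 3 or nTreg AzaC replicate 1 or 3.

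All 15 other cytosolic tRNA synthetases lay above 0 in nTregs with AzaC, against 60.2% of genes above background. Their median was 0.25, with a range of 0.04 to 0.66, and 0.19 without nTreg PBS replicate 1. None of them passed in limma, and 9 stood at an unadjusted p under 0.05. In CD4 cells 10 lay above 0, with a median of 0.09, none passed and 2 stood at an unadjusted p under 0.05. Under PBS Farsb, Cars and Qars were lower in nTregs than in CD4 cells, by differences of -0.40, -0.36 and -0.53. The calls of Farsb and Cars were lost with repeated quantile normalization and without CD4 PBS replicate 1, that of Farsb also without CD4 PBS replicate 2 or nTreg PBS replicate 1, and that of Cars also without CD4 PBS replicate 3 or nTreg PBS replicate 2 or 3. Qars lost its call without moderation and without any 1 of the CD4 PBS or nTreg AzaC replicates or nTreg PBS replicate 1. The adjusted p then reached 0.0772 to 0.117 without single arrays. On leaving out nTreg PBS replicate 1, 1 of the 15 passed.

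Of the 13 genes for eIF2alpha kinases, phosphatase and eIF2B, the adaptor Nck1 fell in nTregs with AzaC (-0.46, adjusted p = 0.0449), and the call was lost without any 1 of 11 arrays, all but nTreg PBS replicate 3. The median of these 13 was 0.22, and 0.12 without nTreg PBS replicate 1. Of 27 other heat shock genes and co-chaperones, Hspbp1, an HSP70 nucleotide exchange factor, rose in nTregs (0.48, adjusted p = 0.0277), but not without nTreg PBS replicate 1 or 2 or any 1 of the nTreg AzaC replicates (adjusted p up to 0.127). The median of the 27 was 0.13 in nTregs, with 22 above 0, and -0.04 in CD4 cells. In CD4 cells none passed and 4 stood at an unadjusted p under 0.05 in limma. Without nTreg PBS replicate 1, 1 of the 27 passed there as lower, against 4.71% of all genes in either direction. Under PBS Hspb1 was higher in nTregs than in CD4 cells (0.50) and Hspa14 (-0.44) and Ahsa1 (-0.71) were lower. These calls were lost in 9, 9 and 11 of the 22 alternatives. Hspb1 lay near background in both populations, at 6.75 in nTregs and 6.24 in CD4 cells. With AzaC 4 of the list were higher in nTregs, among them Hsf2, a heat shock factor (0.82, adjusted p = 0.0093), St13, an HSP70 co-chaperone (0.54, adjusted p = 0.0131), and Ier5 (0.61, adjusted p = 0.0146). All 3 calls were lost without CD4 AzaC replicate 1, and those of Hsf2 and St13 also without nTreg AzaC replicate 2. That of St13 was lost too without nTreg AzaC replicate 1, and that of Ier5 without nTreg AzaC replicate 3. Hsf2 and Ier5 failed without moderation. The Hsf2 mean of 7.15 in CD4 cells with AzaC lay near background.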

How the data were processed

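The authors deposited log2 signals; per the submitters' processing notes, Affymetrix Expression Console ran RMA. Software versions and the genome build are not given in the sources used here. Since RMA normalizes the arrays to each other, differences are relative to the array as a whole. The values still differed in level between arrays, with medians of 6.86 to 7.03 over the genes used here. Centring and repeated quantile normalization moved the shares and medians given above. The values were used as deposited (41345 rows; array medians 6.67 to 6.80). Rows with exactly 1 symbol in the array's probe table were kept (23521), and the brightest row of each of the 1082 genes with several, which left 22180 genes. Promoters are RefSeq windows (GRCm38.p6).

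The fit used limma 3.58.1 (R 4.3.3) on the 12 arrays, with 4 group means (8 residual and 5.95 prior degrees of freedom), with Benjamini-Hochberg adjustment over all genes and a threshold of 0.05. The 3 arrays per group limit the precision: the median SE was 0.13, and 0.18 for the interaction. On simulated data for the nTreg comparison, 99% of 200 changes of 1 and 14% of 200 changes of 0.5 were recovered among 22180 genes. These changes were all upward, the other genes were unchanged, the noise was independent and no array stood apart. Recovery in the real data can therefore differ. Same-numbered arrays deviated together with correlations of -0.099 to 0.187, so the numbers were not taken as pairs.

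Per-array values are given for members called in any comparison and for Atf4, Ddit3, Xbp1, Hspa5 and Hspa1b; of each other list, up to 3 called genes per comparison with the smallest p are eligible to be named. Members and lists were chosen with earlier results of these data known.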

Additional observations from a re-analysis of the deposited data

How the results depend on the processing

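The counts of members called and the 8 called member differences were recomputed under 22 alternatives (21 for the interaction, which uses all groups); other values were read only under the alternatives named beside them. The 22 were 12 fits without 1 array, and the dim-gene filter, centring, repeated quantile normalization, mean over a gene's rows, fixed and random replicate block, array weights, variance trend with robust moderation, no moderation, and the compared groups alone. None of the 8 called member differences changed sign under them. Array weights (statmod 1.5.0 served the random block) moved the number of members called from 4 to 7 for AzaC in nTregs, from 1 to 3 in CD4 cells, from 0 to 1 for the interaction, from 1 to 5 for the populations under PBS and from 2 to 9 with AzaC. The counts over all genes went up too, from 448 to 1290, from 391 to 1291, from 45 to 401, from 1777 to 2528 and from 1498 to 3500 in that order. For AzaC in CD4 cells the count was 0 with centring or without moderation and 2 with repeated quantile normalization, and 0 to 4 without single arrays. For the populations under PBS it was 3 with the dim-gene filter or centring, 0 with the fixed replicate block, without moderation or with the compared groups alone, and 0 to 3 without single arrays. With AzaC it was 1 to 4 without single arrays, and in nTregs 3 to 5. The fixed replicate block changed no other count, and Xbp1 in nTregs kept a difference of 1.25 (adjusted p = 0.000802 in limma). The cause of these changes was not tested. With 3 arrays a group, a change of 0.5 mostly stays below the threshold, and the 3 members near background in all groups cannot be read as unchanged.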
